A study of Mus musculus with 11 samples.

Results

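The interleukin 1 (IL1) and interleukin 6 (IL6) axes were followed through 10 genes in whole mouse liver with and without induction of active YAP. The genes were taken by symbol: the IL1 family cytokines Il1a, Il1b, Il18 and Il33, the receptor antagonist Il1rn, the receptor chains Il1r1 and Il1rap, the cytokine Il6, its receptor Il6ra, and the feedback inhibitor Socs3. All 10 were among the 20893 genes of the expression table, and all 10 were among the 14244 genes tested, which had at least 0.5 eRPKM in at least 3 livers. eRPKM is read here as exonic reads for each kilobase of a gene, relative to library size, since its exact definition is not stated.

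The series held 11 livers of strain C57BL/6 in 3 groups. The 4 control livers had the genotype ROSA26-rtTA-IRES-EGFP with WT in place of the YAP transgene, and were given doxycycline food for 7 days. The induced livers were ROSA26-rtTA-IRES-EGFP with tetYAP, a doxycycline-driven YAP, and 4 were taken after 3 days of doxycycline food and 3 after 7 days. All groups therefore carried rtTA and received doxycycline, and the 3-day livers received it for a shorter time than their controls. By the methods of the study the transgene is YAP S127A, and Alb-Cre limits rtTA to cells that have expressed albumin, so other liver cells are not the induced ones. The labels do not name Alb-Cre or say which groups carried it, and they give no age. They number the livers within a group without tying them to animals, so p-values measure the spread between these samples. The labels of 3-day livers 1 and 4 and 7-day liver 2 also carry the tag MF, whose meaning is not given. No fit included it. At 3 days Il6ra read 15.7 and 18.8 eRPKM in the tagged livers and 33.8 and 48 in the others. Il1rap read 46.3 and 29.4 in the tagged livers and 46.8 and 30 in the others.

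IL1 alpha and IL1 beta bind IL1R1, which recruits the shared accessory chain IL1RAP to signal through MYD88 and NF-kB, while IL1RN occupies the receptor without signalling. IL18 and IL33 are relatives with receptors of their own, and IL1RAP also serves the IL33 and IL36 receptors. IL6 binds IL6RA and then the common chain gp130 (Il6st), which activates JAK kinases and STAT3. STAT3 induces Socs3, which blocks gp130 signalling, and in hepatocytes IL6 and IL1 together drive the acute-phase plasma proteins. Kupffer cells, the resident macrophages of the liver, are a well known source of IL1 beta and IL6.

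Depth, recovered from the steps between low values, was 1251396 to 5495697 reads on genes in the controls, 2660233 to 3681416 after 3 days and 5312486 to 5941357 after 7 days. Olfactory and vomeronasal receptor genes, which are silent in liver, had reads in 28.7% and 34.5% of 1438 such genes in control livers 1 and 2 and in 61.9% in 7-day liver 2, against 2.99% to 12.4% in the other livers. Their mean level was at most 0.224 eRPKM. By expression of X- and Y-linked genes 2 of 4 control, 2 of 4 3-day and 3 of 3 7-day livers were female, so sex and time are partly confounded. Yap1 averaged 18.2 ± 3.1 eRPKM in controls and 18.4 ± 0.862 at 7 days (SD, n = 4 and 3), and whether transgene reads count on that gene is not given in the sources used here. Ctgf, a known YAP target chosen as a check after its values were seen, rose from 8.69 to 96.7 eRPKM at 7 days (limma fit, adjusted p = 1.25e-05).

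In control livers the receptor chains were the most abundant members. Il1rap stood at 42.6 ± 8.58 eRPKM, Il6ra at 32.8 ± 4.15 and Il1r1 at 27.6 ± 3.93 (SD, n = 4 here and below for controls). Il18 followed at 21.2 ± 7.01, Socs3 at 16.6 ± 10.8 and Il1a at 10.6 ± 5.26. Il1rn was at 4.15 ± 2.37, Il33 at 2.6 ± 1.15 and Il1b at 2.53 ± 1.13. Il6 was last at 0.277 ± 0.192. Each gene overlapped its neighbour in this order across the 4 livers, except Il6, whose highest control value lay below the lowest of Il1b. At 7 days the order was led by Il6ra at 40.2 ± 8.99 eRPKM, and Il1rap had moved to the sixth place at 16.6 ± 2.44 (n = 3).

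After 7 days of YAP induction Il6 mRNA rose and Il1rap mRNA fell. Il6 averaged 1.58 ± 0.715 eRPKM against 0.277 in controls, and Il1rap 16.6 ± 2.44 against 42.6. By limma with Benjamini-Hochberg adjustment over all tested genes, at adjusted p under 0.01 and a log2 change beyond 0.5 in either direction, 1 of 10 members was called higher, where 18.0% of all tested genes were, and 1 of 10 lower, where 5.77% were. Neither share of the members stood far from that background. Il6 passed the filter on low values only through the 7-day livers, so its call is a description. The median log2 fold change was 0.45 over the members and 0.26 over all tested genes. At 3 days none of the 10 members was called by limma, where 0.0421% of tested genes were called higher and 0.00% lower. Only Il1rn had an unadjusted p under 0.05 at 3 days, and limma-voom on the recovered reads called 0 members. From 3 to 7 days the same 2 genes, Il6 and Il1rap, were called, beside 14.0% of tested genes higher and 5.31% lower. With the looser limit of an adjusted p under 0.05 and any fold change, 4 members were higher and 1 lower at 7 days (27.9% and 9.98% of all tested genes), 4 higher and 1 lower against the 3-day livers (25.4% and 10.3%), and none at 3 days (0.281% and 0.00702%). The 3-day and 7-day comparisons share their control livers.

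**Figure D1:**
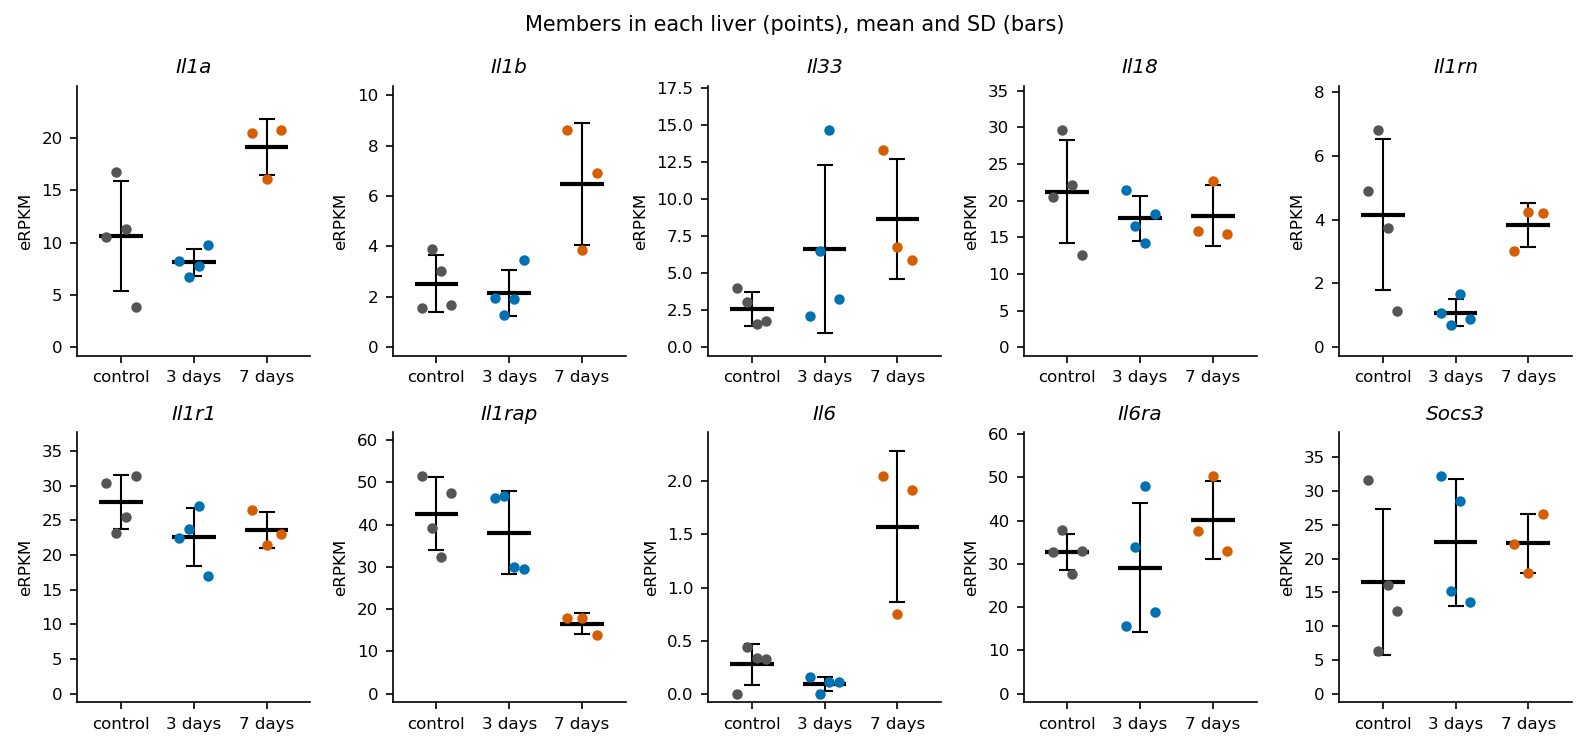
Level of each of the 10 genes in eRPKM (vertical axes, linear) in every control, 3-day and 7-day liver (points), with the mean and SD of each group (bars). Il6 is above all other livers and Il1rap below all other livers in the 3 7-day livers, and Il1b at 7 days runs from 3.85 to 8.64 eRPKM beside a highest control of 3.88.

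Scaling bears on every 7-day value. With median-ratio size factors the median over all genes at 7 days moved from 0.26 to 0.02 on the log2 scale, and with quantile normalization to -0.08. Of the genes called at 7 days, 75.7% were higher by the deposited scale, 60.3% with size factors and 50.4% after quantile normalization. Between the induced groups these shares were 72.5%, 56.3% and 50%. In whole liver, fewer cells of a type and less RNA per cell cannot be told apart.

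The promoter windows of Il6 and Il1rap, the called genes, and of both annotated starts of Il33, the other gene whose 7-day livers all lay above all controls, are shown for orientation. They are the 250 bases before the RefSeq start, on the GRCm38.p6 assembly, read in the direction of the gene. Capitals mark matches, on either strand, to GGAATG (the core site of TEAD, the partner of YAP), TTCNNNGAA (STAT) or GGNNTTTCC (part of an NF-kB site). No matches overlapped in these windows. The Il6 window is chr5:30012864-30013113, plus strand, and holds 1 NF-kB match that begins 43 bases before the start. Il1rap has its window at chr16:26581455-26581704, plus strand, with none of these letters. Those of Il33 are chr19:29924863-29925112 and chr19:29945540-29945789, plus strand, and each holds 1 TEAD match.
Il6: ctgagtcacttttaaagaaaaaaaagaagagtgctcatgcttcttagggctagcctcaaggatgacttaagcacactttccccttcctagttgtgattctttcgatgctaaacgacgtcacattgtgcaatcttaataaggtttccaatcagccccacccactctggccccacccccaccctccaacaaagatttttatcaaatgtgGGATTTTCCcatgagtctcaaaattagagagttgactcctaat
Il1rap: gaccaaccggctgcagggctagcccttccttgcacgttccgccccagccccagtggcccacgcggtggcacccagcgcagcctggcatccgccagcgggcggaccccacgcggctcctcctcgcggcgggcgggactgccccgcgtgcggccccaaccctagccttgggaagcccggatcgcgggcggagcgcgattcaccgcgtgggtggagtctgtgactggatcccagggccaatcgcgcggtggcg
Il33, upstream start: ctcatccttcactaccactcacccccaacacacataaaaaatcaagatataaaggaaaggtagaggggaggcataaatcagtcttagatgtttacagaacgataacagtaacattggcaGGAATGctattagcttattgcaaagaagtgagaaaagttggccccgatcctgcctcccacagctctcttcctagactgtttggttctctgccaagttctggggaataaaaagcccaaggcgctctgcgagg
Il33, downstream start: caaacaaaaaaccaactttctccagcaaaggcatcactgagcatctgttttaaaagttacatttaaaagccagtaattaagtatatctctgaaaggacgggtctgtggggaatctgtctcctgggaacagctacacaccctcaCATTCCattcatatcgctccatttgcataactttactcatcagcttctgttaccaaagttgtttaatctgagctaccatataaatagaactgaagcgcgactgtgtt
Of 14 windows of the 10 genes, 4 held the TEAD letters (Il33 at both starts, 1 start each of Il1r1 and Il1rn), 2 the NF-kB letters (Il6, Il1rn) and 1 the STAT letters (Socs3). Among 32851 mouse promoter windows of the same length, 12.6%, 4.93% and 7.02% held them. The letters describe these windows and are not evidence of binding.

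IL1 alpha and IL1 beta, the agonist cytokines, stood higher at 7 days than at 3 days in each liver. Il1a (Ensembl ENSMUSG00000027399, mm9 chr2:129125346-129135708, minus strand) read 10.5, 16.7, 11.3 and 3.89 eRPKM in control livers 1 to 4, followed by 8.21, 6.7, 7.8 and 9.77 in the 3-day livers. The 7-day livers read 20.5, 16.1 and 20.8 eRPKM. Thus 2 of the 3 7-day livers lay above all controls, and all 3 above all 3-day livers. The log2 fold change was 0.97 ± 0.36 (SE) against control (limma adjusted p = 0.0464) and 1.19 ± 0.36 against 3 days (adjusted p = 0.0209), neither past the threshold of 0.01. On mm9 an exon of Il1a overlaps the opposite-strand transcript Gm14023, and reads were aligned without strand, so the pair cannot be told apart.

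Il1b (mm9 chr2:129190306-129196875, minus strand) was scarcer. Controls read 1.54, 3.88, 3.03 and 1.66 eRPKM. After 3 days the values were 1.95, 1.29, 1.91 and 3.46, and after 7 days 8.64, 3.85 and 6.91. These values rest on 8 to 82 reads in controls, 18 to 49 after 3 days and 88 to 178 after 7 days. The 7-day livers overlapped the controls, since 7-day liver 2 lay just under control liver 2, but not the 3-day livers. The log2 fold change was 1.21 ± 0.37 (SE) against control (limma adjusted p = 0.0205) and 1.39 ± 0.37 against 3 days (adjusted p = 0.0119). Neither was called, and without 3-day liver 4 the second was called (1.60, adjusted p = 0.00847). Exons of Il1b overlap Gm14047 on the opposite strand.

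Macrophage markers moved in the same livers. Their summed level over 6 Kupffer cell markers was 199.7 to 422.4 eRPKM in controls, 248.6 to 491.7 after 3 days and 754.6 to 802.1 after 7 days. Over the 7 markers listed for recruited macrophages and monocytes it ran from 119.0 to 204.7, from 134.0 to 248.5 and from 413.5 to 472.7 eRPKM. In controls Lyz2 averaged 77.9 eRPKM, Spp1 38.7, Ccr2 2.37 and Itgam 1.52, so abundant genes dominate this sum. It is not read as a level of recruited cells apart from Kupffer cells. At 7 days 5 of 6 Kupffer markers were called higher than control, led by Marco (log2 fold change 3.47), Timd4 (2.84) and Vsig4 (1.49), as were 4 of 7 recruited macrophage markers, led by Itgam (3.26), Cd68 (2.61) and Ccr2 (2.10). Of all tested genes 18.0% were called higher than control at 7 days and 5.77% lower. No marker of either macrophage list was at 0 in a whole group. The neutrophil list summed to 18.3 to 28.6 eRPKM in controls and 37.6 to 52.7 at 7 days. Of its 5 tested genes 2 were called higher, Retnlg (2.10) and S100a9 (1.53). Retnlg had at most 1 read per control liver and 6 to 12 at 7 days. The S100a9 call was lost with size factors and after quantile normalization. It was also lost without control liver 1 or 2 or any one 7-day liver (1.28 to 1.66, limma adjusted p from 0.0166 to 0.0398). Cxcr2, named after its values were seen, was the 1 tested gene lower in value, at 8.13 and 7.38 eRPKM. Without control livers 1 and 2 and 7-day liver 2 the counts called in the 3 lists were 1 of 6, 3 of 7 and 0 of 5. With size factors they were 4 of 6, 4 of 7 and 1 of 5, and in female livers alone 3 of 6, 4 of 7 and 0 of 5. Summed hepatocyte markers ran from 1162.7 to 3586.9 eRPKM in controls and from 973.6 to 1091.8 at 7 days, with Ttr called lower (-1.40). Reads of Alb differed far less between livers than depth did, so these sums partly run inverse to depth, lower in deeper livers. The part of cell composition in the cytokine and receptor values was not tested.

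**Figure D2:**
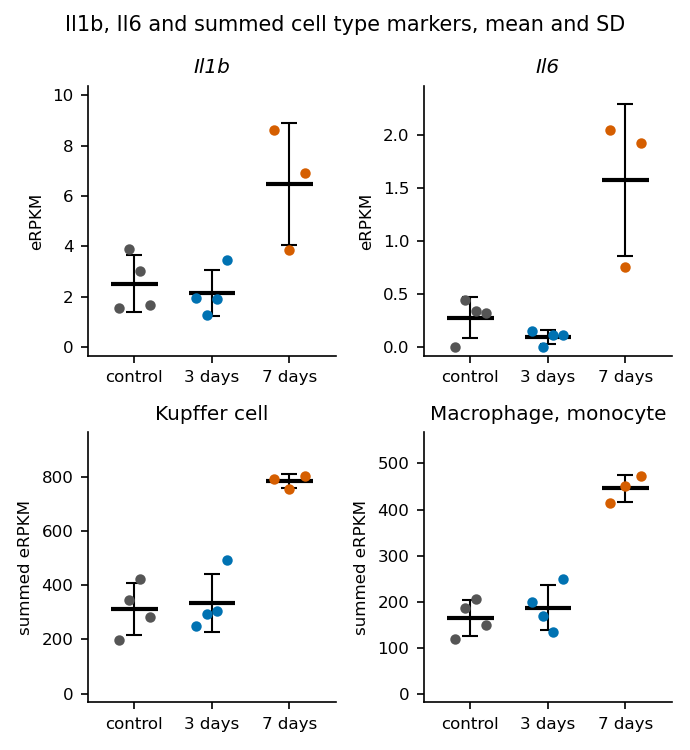
Level of Il1b and Il6 in eRPKM (upper panels) and the summed eRPKM of the 6 Kupffer cell markers and the 7 macrophage and monocyte markers (lower panels) in each liver, with group mean and SD. Both marker sums in the 3 7-day livers lie above every control and 3-day liver.

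Il33, an alarmin of the IL1 family held in the nucleus, varied widely within the induced groups. Controls read 4.02, 3.05, 1.55 and 1.79 eRPKM. After 3 days the values were 2.1, 6.47, 14.7 and 3.24, and after 7 days 13.3, 6.77 and 5.9. All 7-day livers lay above all controls, while at 3 days 2 livers did and 3-day liver 3 exceeded every 7-day liver. Against control the log2 fold change at 7 days was 1.55 ± 0.52 (SE, limma adjusted p = 0.0335), with an exact two-sided permutation p of 0.0286, the smallest that 4 against 3 livers can give. It was not called, but in a fit on those 2 groups alone it was (adjusted p = 0.00713). At 3 days it was 0.94 ± 0.49 (adjusted p = 0.473). The gene lies at mm9 chr19:29999604-30035194, plus strand, with no exon overlap.

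Il18, which needs caspase 1 to mature, showed no called difference. It ranged from 12.6 to 29.7 eRPKM in controls, while the 3-day livers spanned 14.2 to 21.4 and those of 7 days 15.4 to 22.7. Against control the 7-day difference was -0.19 ± 0.26 on the log2 scale (SE, limma adjusted p = 0.58). The gene has the coarsest scale of the members, since 3 reads are worth 0.496 to 2.36 eRPKM depending on the library.

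Il1rn, the secreted antagonist of IL1, averaged 4.15 eRPKM in controls, 1.08 after 3 days and 3.83 after 7 days. Controls read 4.9, 6.82, 3.74 and 1.15 eRPKM. After 3 days they were followed by 1.08, 0.696, 1.67 and 0.881, and after 7 days by 3.03, 4.24 and 4.21. The 3-day values rest on 7 to 17 reads, and control liver 4 on 4 reads. Apart from that liver, the controls lay above all 3-day livers. The log2 fold change at 3 days was -1.40 ± 0.39 (SE, limma adjusted p = 0.157) with an exact two-sided permutation p of 0.0571. From 3 to 7 days it was 1.47 ± 0.43 (adjusted p = 0.0178), and all 3 7-day livers lay above all 3-day livers. Neither was called. The latter was called by limma-voom on the recovered reads (adjusted p = 0.00672) and in a fit on those 2 groups alone (adjusted p = 0.00392).

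The wider IL1 ligand list of 10 genes gave no call by limma in any comparison, with an unadjusted p under 0.05 for 1 gene after 3 days, 3 after 7 days and 3 between the induced groups. By limma-voom on the recovered reads Il1a, Il1b and Il1rn were called between the induced groups. Of its genes 6 were tested, with a median log2 fold change of 0.52 at 7 days by the deposited scale and -0.01 after quantile normalization. The other 4, Il36a, Il36b, Il36rn and Il1f10, had at most 5 reads in any liver. Il36a was listed at 0 in all livers.

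Of the 2 chains of the IL1 receptor, Il1rap was called and Il1r1 was not. Il1r1, the chain that binds the ligand, ranged from 23.2 to 31.4 eRPKM in controls, 17 to 27.1 after 3 days and 21.4 to 26.5 after 7 days, with a 7-day log2 difference from control of -0.22 ± 0.18 (SE, limma adjusted p = 0.37). Il1rap, the accessory chain without which the receptor does not signal, read 51.5, 39.1, 32.4 and 47.5 eRPKM in controls and 46.3, 46.8, 30 and 29.4 at 3 days. The 7-day livers read 18, 18 and 13.8 eRPKM. No 7-day liver reached the lowest liver of either other group. The log2 fold change was -1.32 ± 0.22 (SE) against control (limma adjusted p = 0.000524) and -1.15 ± 0.22 against 3 days (adjusted p = 0.00179), resting on 520 to 1881 reads per liver.

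The fall of Il1rap against control kept its call under every other setting listed at the outset, with adjusted p from 0.000131 to 0.00929. Without control livers 1 and 2 and 7-day liver 2, an alternative added after seeing the data, it was -1.29 with an adjusted p of 0.02. Against 3 days the call was lost without 7-day liver 3 (-1.03, adjusted p = 0.0135), in female livers alone (-0.83, adjusted p = 0.014), with depth as a covariate (adjusted p = 0.0112) and without those 3 livers (adjusted p = 0.0168). Il1rap lies at mm9 chr16:26581790-26730203, plus strand, and its exons overlap RP24-345H5.2 on the minus strand.

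Among the 9 receptors and binding proteins of the family, 2 were called higher at 7 days and 1, Il1rap, lower. Of all tested genes 18.0% were called higher and 5.77% lower. Il1rl2, the IL36 receptor, rose from 0.296 to 2.31 eRPKM (log2 fold change 1.89 ± 0.31, limma adjusted p = 0.00051), with at most 8 reads in any control and at least 24 at 7 days. It passed the filter on low values only through the 7-day livers, so its call, and the count above, are a description. Il18bp, the soluble decoy of IL18, rose from 17.7 to 43.4 eRPKM (1.30 ± 0.28, adjusted p = 0.00323), a call lost in female livers alone and without control liver 4 (1.20, adjusted p = 0.0107), 7-day liver 2 (1.11, 0.022) or 7-day liver 3 (1.33, 0.0131). The other 6 were not called, and the list median of 0.37 turned to -0.09 after quantile normalization. Without control livers 1 and 2 and 7-day liver 2, Il1rl2 alone was called.

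Of the 15 processing and signalling genes, 2 were called higher at 7 days and none lower, a share below the 18.0% of all tested genes called higher. Nlrp3, the inflammasome sensor that leads to caspase 1, rose from 1.22 to 10.9 eRPKM (log2 fold change 2.78 ± 0.29, limma adjusted p = 2.06e-05). In controls it read 0.801, 1.31, 2 and 0.768 eRPKM, and at 7 days 11.5, 9.93 and 11.3. Tab1, which helps activate the kinase TAK1, rose from 3.74 to 9.39 eRPKM (1.24 ± 0.26, adjusted p = 0.0024), a call lost after quantile normalization, without the 3 livers named above, and without 7-day liver 1 (1.26, adjusted p = 0.011) or 7-day liver 3 (1.16, 0.017). Against the 3-day livers 6 of 15 were called higher (14.0% of all tested genes), among them Nlrp3 (3.12), Tab1 (1.58) and Casp1 (1.43), against 2 of 15 without those 3 livers and 3 of 15 after quantile normalization. The Casp1 call was also lost without any one of 3-day livers 2 and 3 and 7-day livers 1, 2 and 3 (1.16 to 1.52, adjusted p from 0.0125 to 0.0358).

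**Figure D3:**
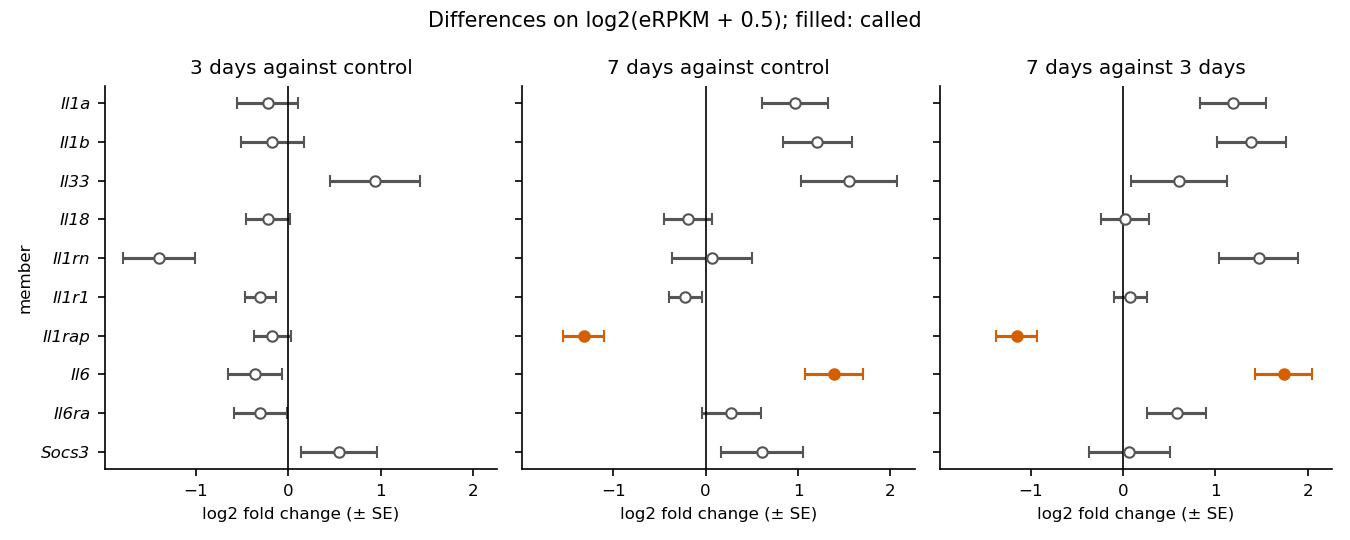
Log2 fold change of each gene with its SE on log2(eRPKM + 0.5) from the limma fit (horizontal axes) in the 3 comparisons, with filled points for calls. Il6 and Il1rap carry the filled points at 7 days against both other groups, and no point is filled at 3 days.

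Il6 was close to the limit of detection before 7 days. It read 0, 0.444, 0.339 and 0.326 eRPKM in controls and 0.153, 0, 0.111 and 0.111 at 3 days, then 2.05, 0.754 and 1.92 at 7 days. These are 0, 6, 2 and 1 reads, 1, 0, 1 and 1 reads, and 27, 11 and 25 reads. A level of 3 reads, taken as the floor of a library, corresponds to 0.206 to 0.977 eRPKM. Of the 8 control and 3-day livers, 7 had 3 reads or fewer. All 3 7-day livers lay above all others. Il6 passed the filter on low values only through the 7-day livers, so its calls are a description.

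Pooled over reads, the 7-day level of Il6 was 5.5 times that of controls, with a 95% exact interval of 2.72 to 12.6, and 17.3 times that at 3 days, with an interval of 5.64 to 85.9. These intervals cover counting error only. On the log2(eRPKM + 0.5) scale, which understates the change of a low gene, the fold change was 1.39 ± 0.31 (SE) against control (limma adjusted p = 0.00394) and 1.74 ± 0.31 against 3 days (adjusted p = 0.00115). The exact two-sided permutation p was 0.0286 in both, the smallest possible. After 3 days its log2 difference from control was -0.36 ± 0.29 (adjusted p = 0.649), a difference that was not detectable at this depth.

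The call of Il6 against control was close to its threshold. Its adjusted p ranged from 0.00144 to 0.0641 over the alternatives, with a positive fold change in each. The call was lost with size factors (0.0101), quantile normalization (0.0641), a pseudocount of 0.1 (0.0187), female livers alone (0.0522) and depth as a covariate (0.0205), as well as in a fit on the 2 groups alone (0.0112). It was also lost without control liver 1 (log2 fold change 1.19, adjusted p = 0.0119), 7-day liver 1 (1.20, adjusted p = 0.0238) or 7-day liver 3 (1.24, adjusted p = 0.024). Without control livers 1 and 2 and 7-day liver 2, the livers with reads across silent genes, it was 1.58 with an adjusted p of 0.00469. Against 3 days the call was lost in female livers alone (adjusted p = 0.0141) and after quantile normalization (adjusted p = 0.0264). Il6 lies at mm9 chr5:30339701-30346508, plus strand, with no exon overlap.

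Other ligands of gp130 rose beside Il6. Of 8 genes of the IL6 ligand list 6 were tested, and 4 were called higher at 7 days against either other group, where 18.0% and 14.0% of all tested genes were. Il6 and Lif passed the filter on low values only through the 7-day livers, so the count and the calls of both genes are a description. Clcf1, a B cell stimulating cytokine, read 0.637, 0.551, 0.458 and 0.22 eRPKM in controls and 4.48, 6.16 and 6.85 at 7 days (log2 fold change 2.71 ± 0.29, limma adjusted p = 2.81e-05). Ctf1, cardiotrophin, read 3.15, 5.11, 2.4 and 2.31 eRPKM in controls and 17.4, 21.3 and 20.6 at 7 days (2.49 ± 0.33, adjusted p = 9.24e-05). Lif, leukaemia inhibitory factor, had 4 reads over all controls and 103 over the 7-day livers (limma adjusted p = 6.77e-05). The ratio of pooled levels was 20.2 with a 95% exact interval of 7.67 to 75.7, which covers counting error only. Clcf1 and Ctf1 kept their calls against control with size factors, quantile normalization, limma-voom, female livers alone and without the 3 livers named above. The Lif call, a description, was kept under the same settings. Against the 3-day livers the Ctf1 call (1.60, adjusted p = 0.0027) was lost in female livers alone, without those 3 livers, and without 7-day liver 2 (1.54, 0.0154) or 7-day liver 3 (1.56, 0.0151).

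None of the 6 receptor genes of the family was called higher at 7 days, and 1 was called lower, beside 18.0% and 5.77% of all tested genes. Il6ra ranged from 27.6 to 37.8 eRPKM in controls, 15.7 to 48 after 3 days and 32.9 to 50.3 after 7 days, with a 7-day log2 difference from control of 0.28 ± 0.32 (SE, limma adjusted p = 0.519). Lifr, the chain that LIF and cardiotrophin share, fell from 83.6, 99.3, 83.6 and 89.8 eRPKM in controls to 25.2, 27.6 and 23 at 7 days (-1.80 ± 0.14, adjusted p = 3.84e-06). Its call held under each scaling.

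**Figure D4:**
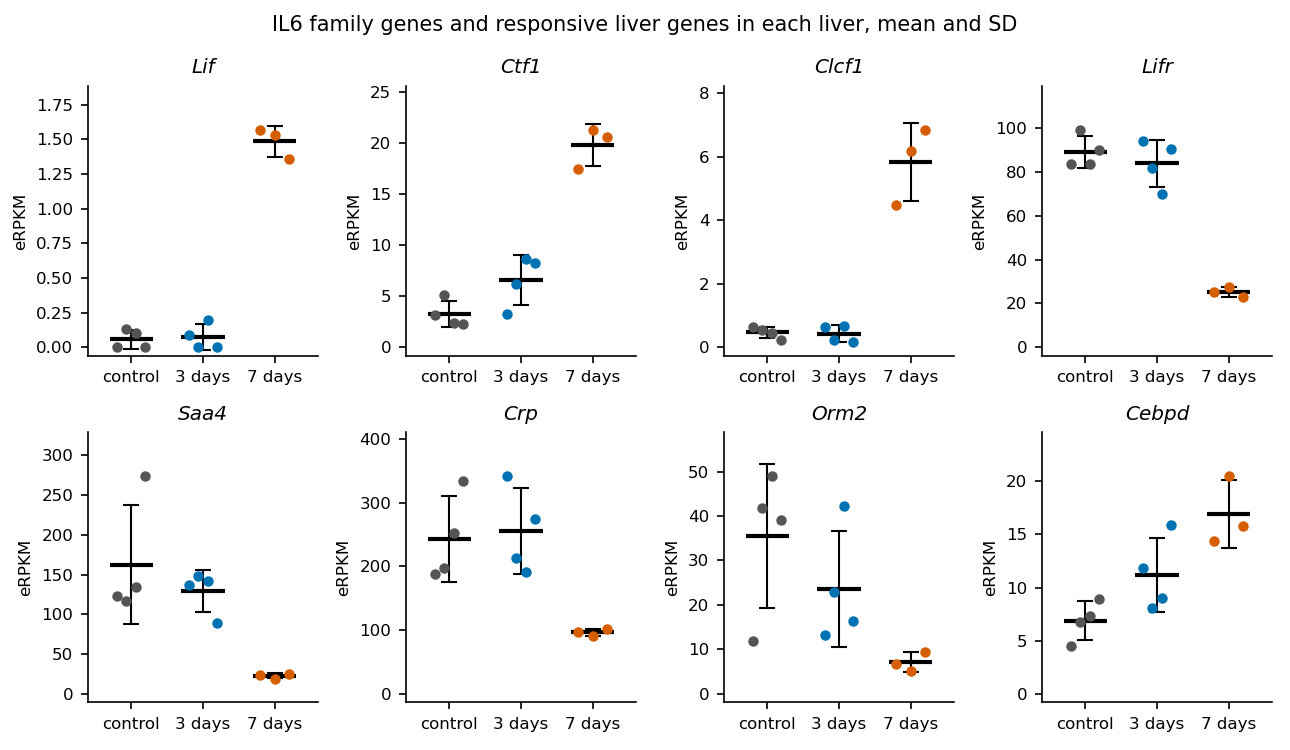
Level in eRPKM (vertical axes, linear) of 3 IL6 family ligands, the receptor chain Lifr and 4 genes listed as responsive in each liver (points), with group mean and SD (bars). Lif, Ctf1 and Clcf1 are higher and Lifr and Saa4 lower in the 3 7-day livers than in any other liver.

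Socs3, the STAT3-induced brake on gp130, showed no called difference. It read 31.6, 6.28, 16.1 and 12.2 eRPKM in controls, 32.2, 15.2, 28.5 and 13.6 at 3 days and 22.2, 17.9 and 26.6 at 7 days. The groups overlapped. Its log2 fold change was 0.55 ± 0.41 (SE) at 3 days (limma adjusted p = 0.617) and 0.61 ± 0.44 at 7 days (adjusted p = 0.292). Of the 13 JAK-STAT genes 2 were called higher at 7 days and none lower, beside 18.0% and 5.77% of all tested genes. Both were phosphatases: Ptpn6 (log2 fold change 2.05 ± 0.28, limma adjusted p = 0.000129) and Ptpn11 (from 23.9 to 48.2 eRPKM, adjusted p = 0.000289). Ptpn6, known as SHP-1, is mainly a gene of blood cells.

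A list of 24 liver genes was read as responsive to IL6 and IL1, though the response of each gene was not tested here. Of these, 7 fell and 1 rose at 7 days by limma, where 5.77% of all tested genes were called lower and 18.0% higher. The values of 19 were lower than control, and the median log2 fold change was -0.89 (-1.16 with size factors, -0.13 after quantile normalization). Of the 5 hepatocyte markers all were lower in value, 1 was called lower (Ttr, transthyretin, from 280.0 to 99.8 eRPKM), and their median was -0.82, or -0.02 after quantile normalization. Their part in the result was not tested. Hpx, one of the 24, had 1676 to 2041 reads per control liver and 1994 to 2033 at 7 days. Alb, a hepatocyte marker, had 2417 to 3102 and 2840 to 2934. Depth ran from 1251396 to 5495697 reads in controls and from 5312486 to 5941357 at 7 days. The eRPKM of both therefore ran largely inverse to depth. Hpx read 878.5 eRPKM in control liver 4, the shallowest, and 243.2 in control liver 2, the deepest control. Saa4 had 679 to 1342 reads per control liver and 236 to 282 at 7 days. Crp had 732 to 1895 and 907 to 945, so its 7-day reads lay within the control range. Ttr had 678 to 1195 and 663 to 721. The part of depth in these falls was not tested. Among the called genes the falls were largest in the serum amyloid genes Saa4, from 162.1 to 22.5 eRPKM (-2.74 ± 0.28, limma adjusted p = 1.71e-05), and Saa1, from 67.4 to 10.2 eRPKM (-2.49 ± 0.61, adjusted p = 0.00631), and in the orosomucoid Orm2, from 35.5 to 7.09 eRPKM (-2.11 ± 0.47, adjusted p = 0.00355). Saa1 read 32.7, 31.2, 58.1 and 147.5 eRPKM in controls and 6.23, 7.49 and 16.8 at 7 days, so that control liver 4 stood highest and the groups did not overlap. Its call was lost in female livers alone, without the 3 livers named above, and without control liver 3 (-2.46, adjusted p = 0.0151), control liver 4 (-2.02, 0.0172), 7-day liver 1 (-2.23, 0.0322) or 7-day liver 2 (-2.35, 0.0296). The Orm2 call was lost without any one of control livers 2, 3 and 4 and 7-day livers 1 and 2 (-2.10 to -1.90, adjusted p from 0.0103 to 0.0213). C-reactive protein (Crp) fell from 242.6 to 96.3 eRPKM (-1.29 ± 0.23, adjusted p = 0.000948).

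The gene that rose was Cebpd, a transcription factor of the acute phase, from 6.87 to 16.9 eRPKM (1.26 ± 0.27, limma adjusted p = 0.00261). Its call was lost with size factors, after quantile normalization, in female livers alone, without the 3 livers named above, and without 7-day liver 2 (1.12, adjusted p = 0.018) or 7-day liver 3 (1.30, 0.0106). Lcn2, lipocalin 2, an iron-scavenging protein of the acute phase named here after its values were seen, read 5.55, 19.2, 20.3 and 14.6 eRPKM in controls, 3.41, 6.9, 54.4 and 12 at 3 days, and 73.2, 55.5 and 100.5 at 7 days. Every 7-day liver was above every other liver. By limma it missed the call against control (2.43 ± 0.70, adjusted p = 0.0156) and against the 3-day livers (2.65 ± 0.70, adjusted p = 0.0113), and limma-voom called it higher in both, as did limma after quantile normalization against the 3-day livers. Against the 3-day livers 4 of the 24 were called lower, where 5.31% of all tested genes were, and none higher by limma, with Saa4 (-2.48), Saa3 (-1.60) and Crp (-1.37) first. The Saa3 call was lost by limma-voom, in female livers alone, and without 3-day liver 1 (-1.65, adjusted p = 0.0145), 2 (-1.59, 0.0171) or 4 (-1.42, 0.0231), or 7-day liver 1 (-1.11, 0.0361) or 3 (-1.65, 0.0251). The Saa and Orm families hold near-identical copies, so the split of reads among them is uncertain.

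The genes whose levels ran most like each member over the 11 livers were found by Pearson correlation of log2(eRPKM + 0.5), as a description. For Il6 they were Cdc42ep2 (r = 0.96), Klf4 (0.96) and Sh2b2 (0.95). Il1b ran most like Rgs1 (0.95), Tspan14 (0.94) and Vsig4 (0.93), the last a Kupffer cell marker. Il1a was followed by Rin2 (0.97), Cog2 (0.96) and Spef1 (0.95). For Il1rap they were Acadsb (0.98), Aox3 (0.97) and Tor1aip2 (0.97), the first an enzyme of mitochondrial fatty acid breakdown. Il33 ran most like Jmjd4 (0.93), Mtrr (0.93) and Poc1a (0.92). For Il6ra the nearest were Ccdc183 (0.98), Usp2 (0.97) and Ceacam2 (0.96), and for Il1rn Birc6 (0.94), Jmjd1c (0.94) and Plekha5 (0.93). Il1r1 was nearest to Pabpc1 (0.93), Il18 to D430019H16Rik (0.90) and Socs3 to Mir760 (0.85). The points share library, depth and group differences.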

How the data were processed

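Total RNA of homogenized livers was sequenced as paired reads from TruSeq v2 libraries. The authors masked low-quality bases, aligned reads to mm9 with TopHat2 2.0.8 without strand information, and deposited RPKM values (eRPKM) per gene and liver. The submitters' processing notes also name featureCounts 1.4.5-p1. The annotation, duplicate handling and exact definition of eRPKM are not given in the sources used here. The deposited table also holds 3 columns of DESeq2 results of the authors for 7 days against control (mean, fold change and adjusted p), which were not used.

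The test was limma 3.58.1 under R 4.3.3 (eBayes with trend) on log2(eRPKM + 0.5) of genes that reached 0.5 eRPKM in 3 or more livers, all 3 groups in one fit, with Benjamini-Hochberg adjustment and the authors' thresholds (adjusted p under 0.01, absolute log2 fold change over 0.5). A count test had been planned for raw counts and was not used, since the table holds eRPKM. The fit was tested on simulated data. Single genes were also tested by exact two-sided permutation over all 70 or 35 splits. Reads were recovered from the steps between values: 177553 of 177553 values above 0 (100%) came within 0.1 of a whole read, a step chosen to fit, so the share is partly built in. They gave depths, the floor of 3 reads per library and a limma-voom alternative. Sex was read from Xist and Ddx3y.

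Named genes were all 10 members, at most the 3 called genes with the largest change in each direction per list and comparison, and the 3 genes most correlated with each member. Members and lists were chosen with earlier results of these data known. Gene positions are from GENCODE M1 on mm9. Promoters are RefSeq windows on GRCm38.p6, and all 10 members matched. The values of 1 listed pathway gene are not reported here.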

Additional observations from a re-analysis of the deposited data

Results flagged for a closer look

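For 2 members the effects after 3 and after 7 days differed, by the limma test of the difference itself. For Il6 the difference was 1.74 on the log2(eRPKM + 0.5) scale (adjusted p = 0.00115), and 3 of 3 7-day livers lay above all 3-day livers. Since Il6 passed the filter on low values only through the 7-day livers, this is a description. For Il1rap the difference was -1.15 (adjusted p = 0.00179), and 3 of 3 7-day livers lay below all 3-day livers. In 20 sets of 4 livers (10 genes in the control and in the 3-day group) no single liver stood apart by Dixon's ratio, where chance flags about 1 set in 20.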

How the results depend on the processing

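Against control at 3 days 0 members were called under every alternative. At 7 days against control the count of 2 became 1 in female livers alone, with depth as a covariate, at a mean of at least 1 eRPKM (which removes Il6), with size factors, after quantile normalization, at a pseudocount of 0.1, with the replicate block and without control livers 1 and 2 and 7-day liver 2 (added after seeing the data). It became 5 at adjusted p under 0.05 with any fold change (Il1a, Il1b, Il1rap, Il33, Il6, against 27.9% of tested genes higher and 9.98% lower), and was 1 to 2 with 1 liver left out. From 3 to 7 days the count of 2 became 0 in female livers, 1 with the depth covariate, the higher mean filter, quantile normalization or without those 3 livers, 4 with the 2 groups alone, and 5 by limma-voom or at adjusted p under 0.05, and was 1 to 3 with 1 liver left out. The causes were not tested, except that fewer livers or genes enter some of these fits.

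Same-numbered livers did not deviate together (correlations of deviations from -0.222 to 0.269, against -0.275 to 0.238 for other pairs), so the numbers only name livers. With the replicate block Il6 at 7 days was 1.42 (adjusted p = 0.0125), not called, and no other call changed.

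Of 607 recomputed log2 fold changes 30 changed sign, all of uncalled members. For Il1rn at 7 days against control 0.07 became -0.38 in female livers, -0.18 by limma-voom, -0.82 with the depth covariate, -0.16 with size factors, -0.58 after quantile normalization and -0.17 with the replicate block, and ran from -0.36 to 0.35 with 1 liver left out. Without the 3 livers the 3-day values became 0.25 (Il1a) and 0.06 (Il18), and Il18 from 3 to 7 days -0.15. From 3 to 7 days size factors and quantile normalization gave -0.16 and -0.09 for Il1r1, -0.22 and -0.21 for Il18 and -0.17 and -0.12 for Socs3. The depth covariate gave -0.29 for Il18, and the block -0.08 for Il18 and -0.07 for Socs3. With 1 liver left out the 3-day values ran from -0.61 to 0.05 (Il1a) and -0.39 to 0.03 (Il1b), and those from 3 to 7 days from -0.05 to 0.17 (Il1r1), -0.15 to 0.12 (Il18) and -0.13 to 0.27 (Socs3). Depth limits Il6 in the control and 3-day livers and Il1rn at 3 days, which had at most 6 and 17 reads per liver.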

Other observations

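Other cell types were read from marker lists in the same livers at 7 days against control, where 18.0% of all tested genes were called higher and 5.77% lower. Of 4 cholangiocyte markers 1 was called higher, the keratin Krt7 (log2 fold change 1.51, limma adjusted p = 0.00221). Its call was lost without 7-day liver 1 (1.47, adjusted p = 0.0113). Krt7 had 0 to 5 reads per control liver and 16 to 18 at 7 days. The summed level of the 4 ran from 4.31 to 5.63 eRPKM in controls and from 11.6 to 15.1 at 7 days. The study reports a gain of cholangiocyte markers alongside hepatocyte dedifferentiation in this model. Which cells carried the markers was not tested here. Of 6 endothelial markers 2 were called higher, Lyve1 (1.93, adjusted p = 0.00401), a receptor of sinusoidal and lymphatic endothelium whose call was lost with size factors and without control liver 3 (1.75, adjusted p = 0.0125) or 4 (1.73, 0.0139) or 7-day liver 1 (1.64, 0.0253) or 3 (1.76, 0.0233), and Cdh5 (1.50, adjusted p = 0.000377). Clec4g, a lectin of sinusoidal endothelium, went the other way in value, from 65.3 to 37.6 eRPKM (-0.77, adjusted p = 0.0409), and Kdr, a receptor of VEGF, read 18.4 and 17 eRPKM (-0.06, adjusted p = 0.857). Clec4g was called lower than in the 3-day livers (-1.11, adjusted p = 0.00805), a call lost in female livers alone, without control livers 1 and 2 and 7-day liver 2, and without 3-day liver 1 (-1.03, 0.0226) or 4 (-0.89, 0.019) or any one 7-day liver (-0.97 to -1.21, 0.0177 to 0.0446). Both were named after their values were seen. Of 6 stellate cell and fibroblast markers 1 was called lower, Reln (-1.22, adjusted p = 0.00374), a call lost without control livers 1 and 2 and 7-day liver 2, and without 7-day liver 1 (-1.17, 0.0179), 2 (-1.21, 0.016) or 3 (-1.28, 0.0123). T cell markers summed to at most 9.23 eRPKM in any liver, and of 6 only Cd4 was called (1.30, adjusted p = 0.00402), a call lost with size factors, after quantile normalization, in female livers alone, without those 3 livers, and without control liver 3 (1.22, 0.0127) or 7-day liver 3 (1.10, 0.0281). Cd4 is also carried by some macrophages. None of 4 B cell markers was called by limma or limma-voom or had an unadjusted p under 0.05, and their sum was 3.75 to 8.6 eRPKM in controls and 4.64 to 12.4 at 7 days. At 3 days limma and limma-voom called none of the 49 tested markers of all lists, of which 4 had an unadjusted p under 0.05.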
